A study of Mus musculus with 22 samples.

Results

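Schlafen genes form a family clustered on mouse chromosome 11, and 7 of its members (Slfn1, Slfn2, Slfn3, Slfn4, Slfn5, Slfn8 and Slfn9) were followed in mouse liver by every probe set that the array annotation assigns to 1 of them alone. These were 7 of 18193 annotated genes and 11 of 45037 probe sets tested. Trim24, a transcriptional co-regulator that binds nuclear receptors, had been disrupted in the mutant mice, and Rara encodes retinoic acid receptor alpha. The 22 arrays were 4 Trim24-/- Rara+/- livers, 4 Trim24-/- livers and 4 wild-type (WT) livers at 5 weeks, and 5 Trim24-/- livers and 5 WT livers at 14 weeks. Each array held the liver of 1 animal, named here at 5 weeks by the number in its label; the values of each 14-week group are given in 1 fixed order of its 5 livers. All animals had a mixed C57BL/6 and 129/Sv background, from crosses of double heterozygotes. The Trim24 disruption was inherited and not limited to a cell type by a promoter or Cre line, and no group had a Rara allele deleted with Trim24 intact. Probes read from the whole liver, so fewer cells of a type and less RNA per cell cannot be told apart.

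Schlafen proteins share an amino-terminal domain related to RNA-cutting enzymes. The mouse family has a short form (Slfn1 and Slfn2), an intermediate form (Slfn3 and Slfn4) and a long form (Slfn5, Slfn8 and Slfn9), and the long form ends in a helicase-like part. Several members are induced by type I interferon, whose receptor signals through transcription factors such as Irf9 to an interferon-stimulated response element in target genes. In mice the short and intermediate members are known mainly from immune cells, in particular T cells, monocytes and macrophages.

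Signal below is the deposited intensity of a probe set, and differences are in log2(signal + 16), which understates the change of dim probe sets. A signal below 16, the value added before the logarithm, is called dim here. Medians per array were 12.6 to 16.1 at 5 weeks and 19.7 to 25.9 at 14 weeks, and 49.9 to 54.5% and 37.8 to 45.3% of probe sets were below 16. Within groups the arrays correlated at 0.940 to 0.991 over the 14299 brighter probe sets. The 2 ages also differed in Xist, at 948 to 2169 on every array at 5 weeks and 13.4 to 44.5 at 14 weeks, and in the Y-linked Eif2s3y, at 0.350 to 6.59 and 245 to 344. Age therefore cannot be told apart from the sex difference that these genes mark. The hepatocyte markers Alb, Apoa1 and others summed to 45536 to 73527 across the 22 livers, so the liver label was met. Trim24 itself read 450.4 ± 34.1 in Trim24-/- Rara+/-, 363 ± 84.7 in Trim24-/- and 317 ± 111 in WT livers at 5 weeks (SD, n = 4 each), and 235 ± 59.3 in Trim24-/- and 168 ± 24.2 in WT livers at 14 weeks (n = 5 each). Since the sources used here do not say whether these probes lie in the disrupted part, this signal does not check the genotype, and genotypes below are those of the labels. Rara was low at 5 weeks and below 16 in 2 of 4 livers of each group. It averaged 18.2 ± 9.97 in Trim24-/- Rara+/-, 13.7 ± 8.45 in Trim24-/- and 12.3 ± 11.7 in WT livers, so this signal could not check its deleted allele either. Trim24 and Rara were each read by their probe set of highest mean alone.

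The start-site windows of Slfn1, Slfn2 and Slfn4 are printed because these 3 genes had the largest differences between Trim24-/- and WT at 5 weeks. They come from RefSeq on GRCm38.p6 and run from 250 bases before to 50 bases after the start of transcription, 5′ to 3′ on the strand of the gene. Capitals mark the letters AANNGAAA, a core bound by interferon regulatory factors, on either strand.
Slfn1 (chr11:83116570-83116869, plus strand): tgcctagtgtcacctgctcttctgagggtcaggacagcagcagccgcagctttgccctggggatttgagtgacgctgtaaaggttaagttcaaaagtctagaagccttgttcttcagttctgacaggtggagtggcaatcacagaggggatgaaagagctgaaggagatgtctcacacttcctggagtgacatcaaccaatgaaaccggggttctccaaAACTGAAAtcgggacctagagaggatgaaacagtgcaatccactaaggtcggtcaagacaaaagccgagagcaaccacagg
Slfn2 (chr11:83064862-83065161, plus strand): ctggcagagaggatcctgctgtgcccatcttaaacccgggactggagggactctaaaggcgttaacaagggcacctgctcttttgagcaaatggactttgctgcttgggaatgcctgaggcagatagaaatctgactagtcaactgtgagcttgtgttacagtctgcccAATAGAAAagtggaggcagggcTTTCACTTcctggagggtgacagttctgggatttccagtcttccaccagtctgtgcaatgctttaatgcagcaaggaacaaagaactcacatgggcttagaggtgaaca
Slfn4 (chr11:83174936-83175235, plus strand): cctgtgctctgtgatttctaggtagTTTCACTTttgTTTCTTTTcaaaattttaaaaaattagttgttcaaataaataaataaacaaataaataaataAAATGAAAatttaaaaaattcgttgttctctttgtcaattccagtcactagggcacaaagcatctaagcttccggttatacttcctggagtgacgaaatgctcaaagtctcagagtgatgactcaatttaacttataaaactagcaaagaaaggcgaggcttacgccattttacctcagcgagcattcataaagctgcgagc
For the long members Slfn5, Slfn8 and Slfn9, 60 bases are shown around the core of the interferon-stimulated response element (GAAA, any 2 bases, then GAAA on either strand), in capitals.
Slfn5 (chr11:82951922-82951981, plus strand): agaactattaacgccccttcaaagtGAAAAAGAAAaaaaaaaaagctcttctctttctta
Slfn8 (chr11:83020824-83020883, minus strand): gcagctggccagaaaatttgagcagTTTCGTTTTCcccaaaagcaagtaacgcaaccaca
Slfn9 (chr11:82991841-82991900, minus strand): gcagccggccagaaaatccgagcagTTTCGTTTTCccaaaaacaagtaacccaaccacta

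All 7 genes held AANNGAAA in their windows, against 23.9% of 32851 windows of all genes. The longer response element core, which always contains the shorter one, was present in 3 of 7 (Slfn5, Slfn8 and Slfn9), against 3.44%. The match in Slfn1 lay 31 to 24 bases before the start, and those of Slfn2 lay 81 to 74 bases before it on the same strand and 59 to 52 bases before it on the opposite strand. Slfn4 had 3 matches, the nearest 152 to 145 bases before the start. In Slfn8 and Slfn9 the longer element lay on the opposite strand, 48 to 39 and 45 to 36 bases before the start (136 to 127 from a second RefSeq start of Slfn8), and in Slfn5 it lay 155 to 146 bases before it. A further run of letters, ACTTCCTGGAG, was found only after the windows were read. It was the longest shared on the same strand by Slfn1, Slfn2 and Slfn4. It lay 74 to 64, 55 to 45 and 73 to 63 bases before their starts. In Slfn2 it overlapped the opposite-strand match of AANNGAAA. The exact run stood in 11 of 32851 windows on that strand, or 0.0335%, and in none of the other 4 Schlafen windows. On either strand it stood in 24, or 0.0731%. Both counts include the 3 Schlafen windows that defined the run, so these shares do not test it. The Slfn3 window held a near match on the same strand, ACTTCCTGGGG. Neighbouring copies of a duplicated gene share sequence, and a match is a description of letters and not a binding site.

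**Figure D1:**
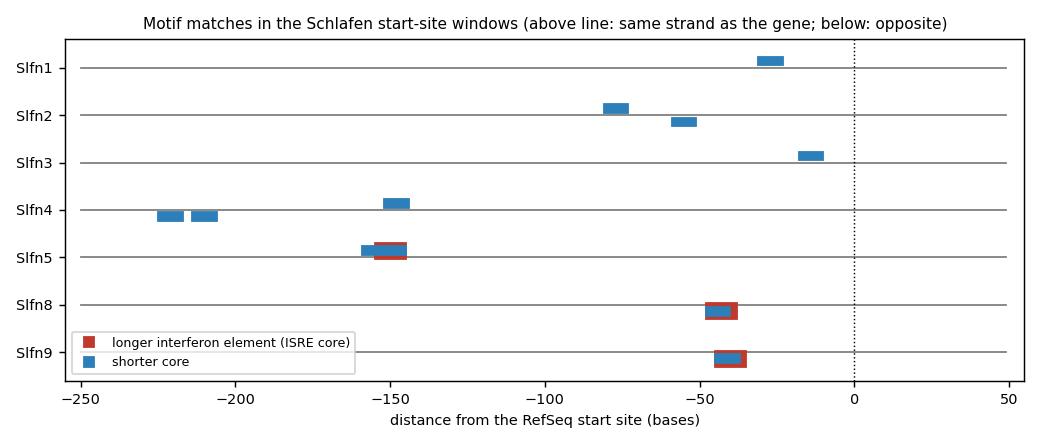
Positions of the motif matches in the windows of the 7 Schlafen genes, in bases from the RefSeq start site (x axis; dotted line at 0). Wide red boxes are the longer core of the interferon-stimulated response element and blue boxes AANNGAAA, drawn above the line for the strand of the gene and below it for the opposite strand; the red boxes are in Slfn5, Slfn8 and Slfn9 alone.

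Slfn1, the short member first described in T-cell development, was the Schlafen gene whose difference passed the test. Its probe set 1418612_at read 0.647, 0.666, 10.7 and 3.76 in the Trim24-/- Rara+/- livers of animals 54, 66, 73 and 82. In the Trim24-/- livers of animals 1, 6, 8 and 37 it read 18.2, 17.1, 26.5 and 12.3, and in the WT livers of animals 2, 44, 45 and 90 it read 2.34, 0.559, 0.923 and 2.51. Every 5-week Trim24-/- liver was above every liver of the other two groups, although only 3 of 22 arrays reached a signal of 16. Within its array, the probe set ranked at the 48.5 to 61.8 percentile of all probe sets in Trim24-/- livers and at the 2.25 to 21.5 percentile in WT livers. At 14 weeks it read 9.60, 8.74, 2.42, 1.65 and 11.5 in the 5 Trim24-/- livers, and the 5 WT livers read 2.21, 2.63, 1.36, 3.07 and 2.64. Here 3 Trim24-/- livers lay above all WT livers and 2 lay among them.

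Slfn2, a short member whose loss in mice makes T cells and monocytes leave quiescence, was above 16 on all 22 arrays with its probe set 1450165_at. It read 28.5, 24.7, 59.3 and 27.0 in Trim24-/- Rara+/- animals 54, 66, 73 and 82. The Trim24-/- animals 1, 6, 8 and 37 had 80.9, 66.4, 72.8 and 135.6, and the WT animals 2, 44, 45 and 90 had 20.1, 23.3, 28.8 and 37.7. The 5-week Trim24-/- livers were again all above both other groups, and animal 73 was the only Trim24-/- Rara+/- liver above the WT range. At 14 weeks the 5 Trim24-/- livers had 26.8, 43.2, 19.2, 29.0 and 40.9, and the 5 WT livers had 47.1, 21.8, 27.9, 25.5 and 27.6. These groups overlapped, with the highest value in a WT liver.

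Slfn4, an intermediate member known from myeloid cells and macrophages, was read by probe set 1427102_at. Its signal was 13.3, 3.43, 8.86 and 2.34 in Trim24-/- Rara+/- animals 54, 66, 73 and 82. It was 80.9, 16.7, 39.8 and 23.8 in Trim24-/- animals 1, 6, 8 and 37, against 0.302, 1.60, 2.46 and 9.35 in WT animals 2, 44, 45 and 90. All 4 Trim24-/- livers were above every other 5-week liver, and no other 5-week liver reached 16. Among 14-week Trim24-/- livers it was 2.48, 3.36, 4.59, 10.2 and 44.3. In 14-week WT livers it was 6.02, 2.79, 13.7, 2.43 and 13.6. The liver given last in the Trim24-/- group stood above the rest, and the other 4 Trim24-/- livers lay within the WT range.

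**Figure D2:**
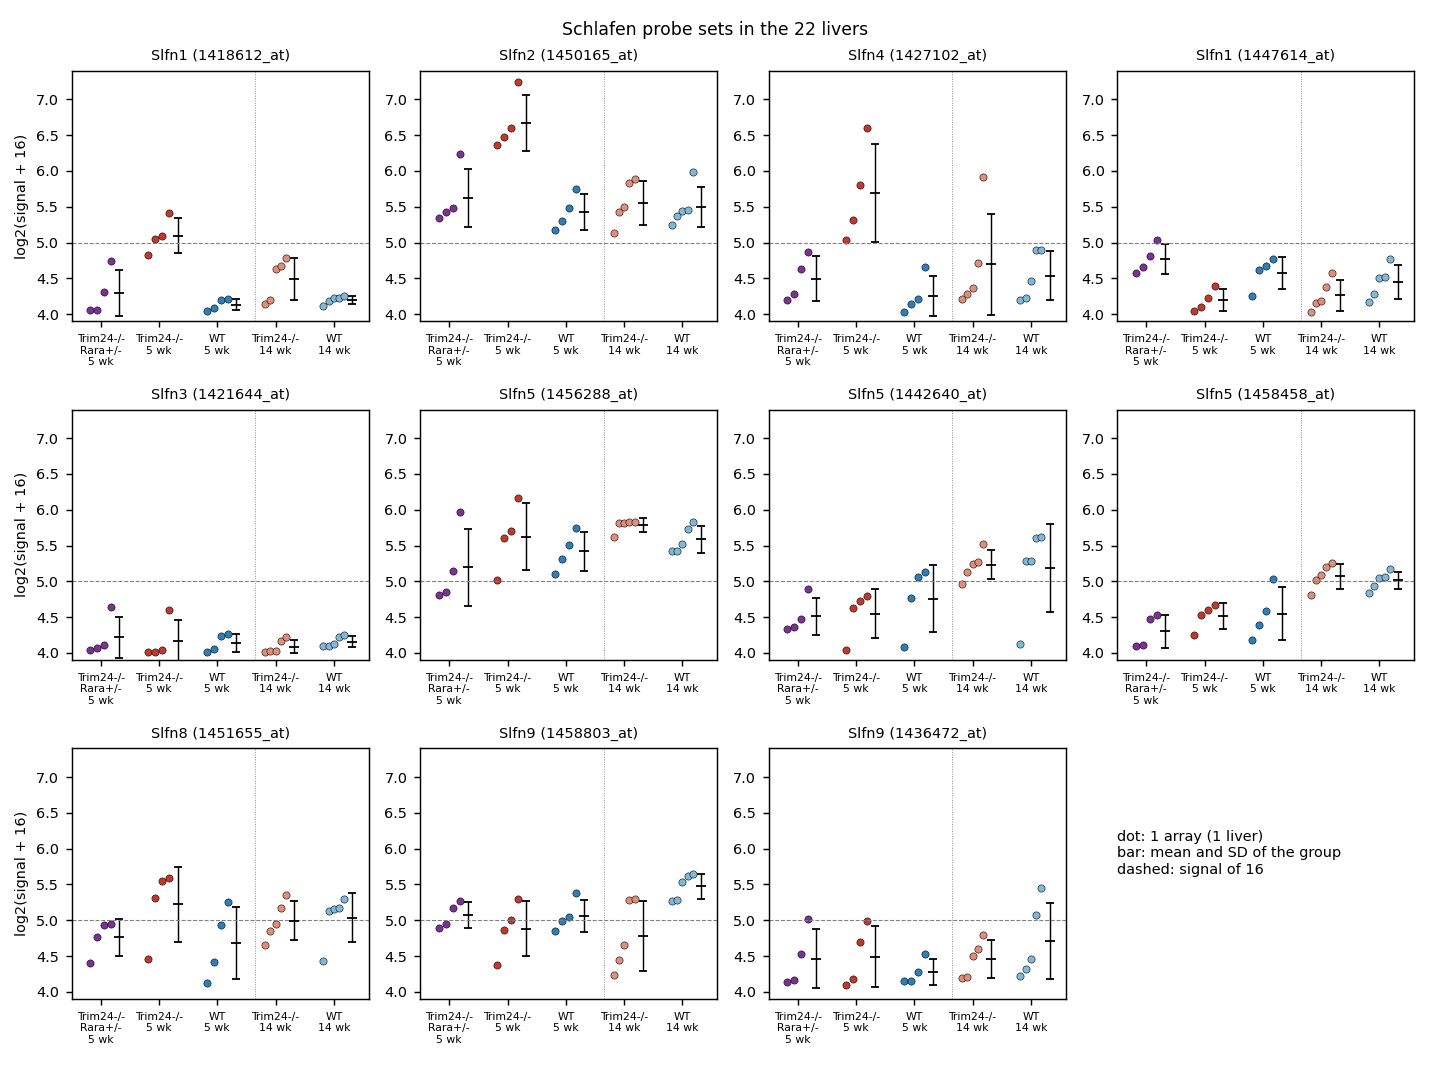
Each of the 11 Schlafen probe sets in a panel, with log2(signal + 16) on the y axis and the 5 groups on the x axis; dots are livers, bars the mean and SD, and the dashed line a signal of 16. In the first 3 panels the 5-week Trim24-/- livers lie above both other 5-week groups, and in the remaining panels they overlap the WT livers.

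Comparing Trim24-/- with WT at 5 weeks asks which Schlafen genes changed when Trim24 was disrupted. Slfn1 rose, at 18.5 ± 5.92 in Trim24-/- and 1.58 ± 0.985 in WT livers (SD, n = 4 each), a difference of 0.96 ± 0.16 (SE; limma, adjusted p = 0.0358). Slfn2 averaged 88.9 ± 31.7 in Trim24-/- and 27.5 ± 7.71 in WT livers, 3.24 times as much by mean signal, and its difference of 1.24 ± 0.23 missed the threshold (limma, adjusted p = 0.0537). Slfn4 averaged 40.3 ± 28.7 and 3.43 ± 4.05, a difference of 1.43 ± 0.29 that also missed it (limma, adjusted p = 0.0799). Of the 11 probe sets, 1 was called higher and 0 lower at adjusted p under 0.05, against 0.182% and 0.0511% of all 45037. At an unadjusted p under 0.05 limma had 3 higher and 1 lower, against 4.47% and 4.39% of all. The groups did not overlap for 3 probe sets that were higher in Trim24-/- livers, against 2.22% of all, and for 0 that were lower, against 2.5%. The median difference was 0.21 over the 11 and -0.02 over all probe sets. The Slfn1 call rested on dim signals and was narrow: it was lost (limma, adjusted p from 0.0516 to 0.115) when a single liver was left out, whichever of animals 2, 44, 45 and 90 (WT), 1, 6 and 8 (Trim24-/-) or 54, 66 and 82 (Trim24-/- Rara+/-) it was, and also with other pseudocounts. Averaging the 2 Slfn1 probe sets also ended it, at 0.29 (adjusted p = 0.482). Slfn2 joined the Slfn1 call without Trim24-/- Rara+/- animal 73 (adjusted p = 0.0260), and without Trim24-/- animal 6 Slfn4 was called (adjusted p = 0.0433) and Slfn1 was not.

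The second Slfn1 probe set, 1447614_at, went the other way. It read 11.5 ± 3.97 in Trim24-/- Rara+/-, 2.36 ± 2.00 in Trim24-/- and 8.09 ± 3.56 in WT livers at 5 weeks (SD, n = 4 each). Its difference between Trim24-/- and WT was -0.39 ± 0.14 (limma, adjusted p = 0.403). It was below 16 on 21 of 22 arrays and the annotation lists it with no accession, whereas 1418612_at, 1450165_at and 1421644_at are each listed through a RefSeq transcript of their gene. The other 7 probe sets are listed through other accessions. Schlafen genes are close copies of each other, and whether a probe set also reads a relative was not tested. A further probe set listed with more than 1 symbol, Slfn3 and Slfn4 among them, was below 16 on all 22 arrays and is not counted.

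The remaining members did not pass. Slfn3, an intermediate member described in T cells and in gut epithelium, was below 16 in all 22 livers, at 0.142 to 9.03. Slfn8, a long member, averaged 11.4 ± 4.55 in Trim24-/- Rara+/-, 23.1 ± 11.96 in Trim24-/- and 10.9 ± 9.31 in WT livers at 5 weeks. In single livers Slfn8 read 6.07, 31.97, 23.5 and 30.9 in Trim24-/- animals 1, 6, 8 and 37, against 1.499, 22.2, 5.40 and 14.5 in WT animals 2, 44, 45 and 90. Animal 1 thus lay within the WT range, and the difference was 0.54 ± 0.28 (limma, adjusted p = 0.616). Slfn5, a long member found in the nucleus, had 3 probe sets. With 1456288_at it read 22.8 ± 16.4 in Trim24-/- Rara+/-, 35.3 ± 16.1 in Trim24-/- and 27.3 ± 8.14 in WT livers at 5 weeks, and 39.2 ± 3.45 in Trim24-/- and 32.3 ± 6.26 in WT livers at 14 weeks. The differences of Slfn5 between Trim24-/- and WT at 5 weeks were 0.21 ± 0.28, -0.21 ± 0.23 and -0.03 ± 0.18 with its 3 probe sets, so even their signs varied. Slfn9, the other long member, had differences of -0.18 ± 0.18 and 0.21 ± 0.23 with its 2 probe sets in the same comparison.

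The same question was put to Trim24-/- Rara+/- livers, in which the Trim24 disruption came with 1 Rara allele, against WT. None of the 11 probe sets was called in limma, against 0.0311% of all called higher and 0% lower. None had an unadjusted p under 0.05 either, against 2.56% of all higher and 4% lower. Slfn1 averaged 3.95 ± 4.74 in Trim24-/- Rara+/- and 1.58 ± 0.985 in WT livers, a difference of 0.16 with a 95% interval of -0.19 to 0.50. Slfn2 averaged 34.9 ± 16.3 and 27.5 ± 7.71, a difference of 0.20 with an interval of -0.30 to 0.69. Slfn4 averaged 6.97 ± 5.06 and 3.43 ± 4.05, with a difference of 0.24 and an interval of -0.39 to 0.87. For all 11 the 2 groups overlapped, against 1.49% of all probe sets without overlap and higher and 2.41% lower. The Slfn2 difference depended on animal 73 and was -0.0087 without it. Animal 73 also had the highest summed signal in its group for markers of NK cells (155, against 54.6 to 78.6 in the other 3 livers), neutrophils (277, against 64.6 to 74.7), macrophages and monocytes (3411, against 2599 to 2792) and Kupffer cells (7261, against 3926 to 4916). It was not the highest for markers of T cells (93.0, against 96.3 in animal 82), B cells (67.9, against 73.5) or dendritic cells (62.9, against 82.5). For endothelial markers it was the lowest (1614). The part of any of these markers in the Slfn2 signal of animal 73 was not tested.

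Trim24-/- Rara+/- against Trim24-/- livers asks directly what the lost Rara allele changed. In this comparison 0 of the 11 probe sets were called in limma, against 0.0266% of all higher and 0.0377% lower. Slfn1 had a difference of -0.80 ± 0.16 (limma, adjusted p = 0.114), with a 95% interval of -1.15 to -0.46. For Slfn2 it was -1.05 ± 0.23 (adjusted p = 0.140), a mean signal 0.392 times as high, and for Slfn4 it was -1.19 ± 0.29 (adjusted p = 0.182). At an unadjusted p under 0.05 limma had 1 higher and 3 lower, against 3.78% and 5.29% of all. The same 3 genes were lower without overlap, against 3.64% of all, and Slfn1 probe set 1447614_at was higher without overlap, against 2.78%, at 0.58 ± 0.14 (adjusted p = 0.177). This comparison and that of Trim24-/- with WT share the 4 Trim24-/- arrays, so the 2 sets of differences are not independent. Without Trim24-/- Rara+/- animal 73, Slfn1 passed in limma at -0.95 (adjusted p = 0.0424).

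At 14 weeks 0 of the 11 probe sets were called between Trim24-/- and WT livers in limma, against 0.102% of all higher and 0.0222% lower. Slfn1 averaged 6.77 ± 4.45 in Trim24-/- and 2.38 ± 0.646 in WT livers (SD, n = 5 each), a difference of 0.29 ± 0.14 (limma, adjusted p = 0.715). Slfn2 averaged 31.8 ± 10.04 and 30.0 ± 9.85, a difference of 0.05 with a 95% interval of -0.33 to 0.44. Slfn4 averaged 13.0 ± 17.7 and 7.72 ± 5.62, with a difference of 0.16 and an interval of -0.50 to 0.82. For none of the 11 were the groups free of overlap, against 0.824% of all higher and 0.626% lower. Without the Trim24-/- liver given last, the Slfn4 difference was -0.15. At an unadjusted p under 0.05, limma had 0 higher and 1 lower, against 3.9% and 3.31% of all. That 1 was Slfn9 probe set 1458803_at, which read 5.78, 2.78, 9.12, 23.3 and 22.9 in the 5 Trim24-/- livers. It read 30.3, 33.2, 34.1, 22.7 and 23.1 in the 5 WT livers. Slfn9 was low in 3 Trim24-/- livers, while 2 lay at the lower end of the WT range, and the difference was -0.69 ± 0.21 (limma, adjusted p = 0.448). The other Slfn9 probe set had -0.25 ± 0.23.

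Whether the Trim24-/- difference itself changed with age was tested as an interaction over all 22 arrays. Age here cannot be told apart from the sex difference that Xist and Eif2s3y mark. No Schlafen probe set passed in limma, against 0.0155% of all higher and 0.00222% lower. With an unadjusted p under 0.05, 3 were lower, against 2.68% of all, and 0 higher, against 3.01%. Slfn2 had a change in difference, 14 weeks minus 5 weeks, of -1.19 ± 0.30 (limma, adjusted p = 0.419). For Slfn1 it was -0.67 ± 0.21 (adjusted p = 0.624) and for Slfn4 -1.27 ± 0.44 (adjusted p = 0.696). These differences between ages are therefore not shown.

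**Figure D3:**
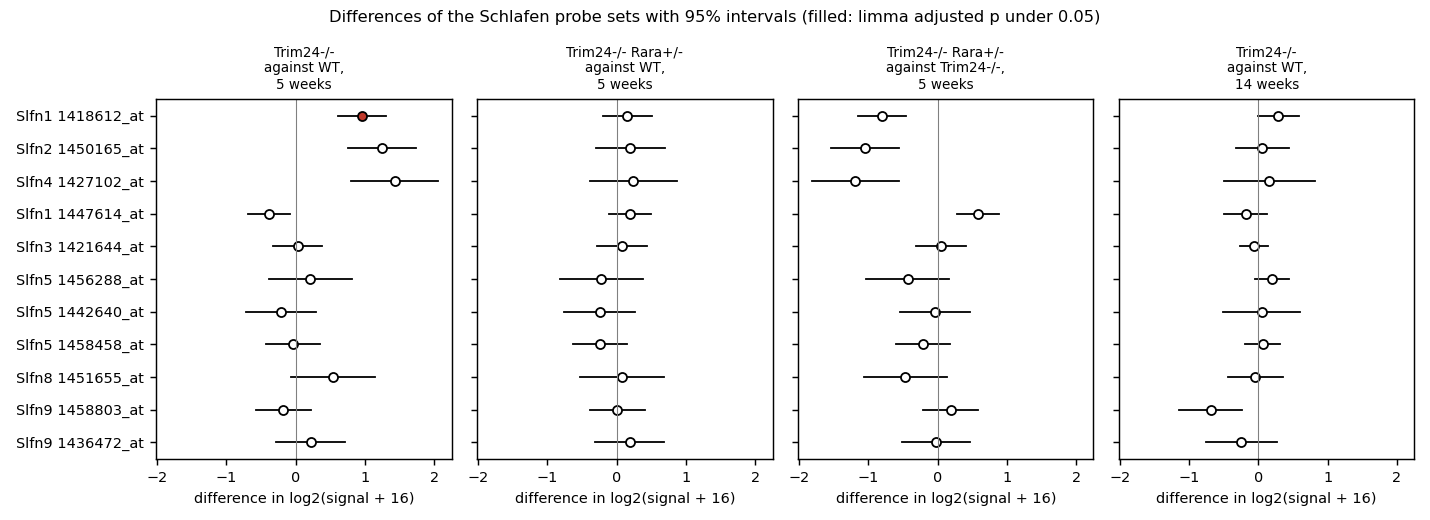
Differences in log2(signal + 16) of the 11 Schlafen probe sets (x axis) with 95% intervals, in 4 comparisons; the filled point passed limma at adjusted p under 0.05. Slfn1 1418612_at, Slfn2 and Slfn4 lie right of 0 for Trim24-/- against WT at 5 weeks. They lie left of 0 for Trim24-/- Rara+/- against Trim24-/-. Slfn1 1447614_at lies on the opposite side of 0 in both.

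By mean level on the log2 scale, Slfn2 ran 6.67 in 5-week Trim24-/-, 5.62 in Trim24-/- Rara+/-, 5.55 in 14-week Trim24-/-, 5.50 in 14-week WT and 5.43 in 5-week WT livers. Slfn1 1418612_at ran 5.09 in 5-week Trim24-/-, 4.49 in 14-week Trim24-/-, 4.29 in Trim24-/- Rara+/-, 4.20 in 14-week WT and 4.13 in 5-week WT livers. In both orders only the first 2 groups were free of overlap, and all later neighbours overlapped. Slfn4 ran 5.69 in 5-week Trim24-/-, 4.69 in 14-week Trim24-/-, 4.54 in 14-week WT, 4.50 in Trim24-/- Rara+/- and 4.26 in 5-week WT livers, and all its neighbours overlapped. The Slfn5 probe sets 1442640_at and 1458458_at had their 2 highest means in the 14-week groups, where array medians were also higher.

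Slfn1 1418612_at, Slfn2 and Slfn4 were each highest in 5-week Trim24-/- livers but ordered the livers within a group differently. The other Slfn1 probe set, 1447614_at, had its lowest mean in those livers, and Slfn1 here is 1418612_at. Over the 12 livers at 5 weeks the levels of the 3 genes correlated at r = 0.83 (Slfn1 and Slfn2), 0.81 (Slfn1 and Slfn4) and 0.77 (Slfn2 and Slfn4). With each group's mean removed the values were 0.24, 0.22 and 0.16. Among Trim24-/- livers, animal 8 had the highest Slfn1, animal 37 the highest Slfn2 and the lowest Slfn1, and animal 1 the highest Slfn4. No member reached the level set for naming genes of like pattern, a mean log2 of at least 6, and Slfn2 came closest at 5.91. With that floor dropped for Slfn1, Slfn2 and Slfn4 after their values were seen, 8178 brighter genes were ranked by Pearson r over the 12 livers. Nearest to Slfn1 were Trim30a (0.96), the interferon-induced protease gene Usp18 (0.94) and the antiviral synthetase gene Oas1a (0.94), with 0.64, 0.65 and 0.77 over the 10 livers at 14 weeks. Nearest to Slfn4 were the interferon-inducible GTPase gene Iigp1 (0.95), the vault protein gene Mvp (0.94) and the RNA sensor gene Dhx58 (0.94), with 0.40, 0.36 and 0.56 at 14 weeks. Nearest to Slfn2 were the galectin gene Lgals3 (0.94), Msn, which encodes moesin (0.93), and the creatine kinase gene Ckb (0.92), with 0.49, 0.54 and 0.57. After each group's mean was removed, the 5-week values were 0.81, 0.79 and 0.66 for the neighbours of Slfn1. They were 0.85, 0.82 and 0.87 for those of Slfn4, and 0.76, 0.85 and 0.86 for those of Slfn2. All these correlations are descriptions of points that share 3 groups. The neighbours were picked as the highest of many over the same 12 livers.

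Genes of the interferon pathway were read beside the Schlafen genes. Of 16 listed receptors, kinases, transcription factors and feedback regulators, 15 were measured. In no comparison was any called, against at most 0.182% of all probe sets in either direction. At an unadjusted p under 0.05 limma had 7 of 15 in Trim24-/- against WT at 5 weeks, all higher (4.47% of all probe sets were). It had 0 in Trim24-/- Rara+/- against WT (2.56% of all higher and 4% lower). In Trim24-/- Rara+/- against Trim24-/- it had 4, all lower (5.29% of all), and at 14 weeks 7, all higher (3.9% of all). Median differences in these 4 comparisons were 0.33, 0.10, -0.29 and 0.28. Irf7, the factor that amplifies interferon responses, averaged 265 ± 99.4 in Trim24-/- Rara+/-, 927 ± 544 in Trim24-/- and 198 ± 49.1 in WT livers at 5 weeks (SD, n = 4 each). Its difference between Trim24-/- and WT was 1.96 ± 0.38 (limma, adjusted p = 0.0653). Usp18, which limits interferon receptor signalling, had 2.06 ± 0.41 in the same comparison (adjusted p = 0.0772) and 1.17 ± 0.21 at 14 weeks (adjusted p = 0.0839). The list's summed signal was 3120 to 3838 in Trim24-/- Rara+/-, 4131 to 6555 in Trim24-/- and 3008 to 3331 in WT livers at 5 weeks, and 3166 to 3767 in Trim24-/- and 2573 to 3096 in WT livers at 14 weeks. At 5 weeks it was thus higher in every Trim24-/- liver than in any other liver, as for Slfn1 1418612_at, Slfn2 and Slfn4. At 14 weeks every Trim24-/- sum was above every WT sum, whereas those 3 Schlafen genes overlapped.

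Markers of other cells were read beside these values. In any comparison at most 0.182% of all probe sets were called in either direction. NK cell markers, 7 of 8 measured, had 0 calls. They summed to 54.6 to 155 in Trim24-/- Rara+/-, 114 to 237 in Trim24-/- and 66.1 to 104 in WT livers at 5 weeks. At an unadjusted p under 0.05 limma had 5 of 7 in Trim24-/- against WT, all higher (4.47% of all probe sets were). It had 5 of 7 in Trim24-/- Rara+/- against Trim24-/-, all lower (5.29% of all). The NK cell medians there were 0.62 and -0.55, and at 14 weeks the sums were 132 to 194 in Trim24-/- and 122 to 178 in WT livers. T cell markers, 9 of 10 measured, had 0 calls, a median of 0.09 in Trim24-/- against WT at 5 weeks, and sums of 44.5 to 96.3, 76.6 to 122 and 67.4 to 114 in Trim24-/- Rara+/-, Trim24-/- and WT livers. Among macrophage and monocyte markers, 9 of 10 measured, Mpeg1 rose in Trim24-/- against WT at 5 weeks (1.69 ± 0.30, limma, adjusted p = 0.0466). Mpeg1 encodes a pore-forming protein of macrophages. The list median was 0.21. At an unadjusted p under 0.05 limma had 3 of 9 at either age, all higher, against 4.47% of all at 5 weeks and 3.9% at 14 weeks. That list summed to 2599 to 3411, 2482 to 4689 and 1958 to 3750 in Trim24-/- Rara+/-, Trim24-/- and WT livers. Kupffer cell markers, all 9 measured, had 0 calls and medians in Trim24-/- against WT of 0.37 at 5 weeks and 0.51 at 14 weeks. At an unadjusted p under 0.05 limma had 3 of 9 at 5 weeks, with Marco and Cd5l higher and Cd163 lower (4.47% and 4.39% of all probe sets). At 14 weeks it had 6 of 9, all higher (3.9% of all), and all 9 differences were positive. In Trim24-/- Rara+/- against WT it had 2 of 9, Marco and Cd5l, both higher (2.56% of all), and all 9 were positive. The Kupffer sums were 3926 to 7261, 3620 to 8451 and 2919 to 6024 in Trim24-/- Rara+/-, Trim24-/- and WT livers at 5 weeks. Neutrophil markers (8 of 10), B cell markers (5 of 6), dendritic cell markers (all 6), endothelial markers (all 6) and hepatocyte markers (6 of 8) had 0 calls and medians in Trim24-/- against WT at 5 weeks of 0.14, 0.15, 0.05, -0.13 and -0.06. Cxcr2 of the neutrophil list was below 16 on every array, and no measured marker of the other cell lists was. The sum of NK cell markers was thus higher in every 5-week Trim24-/- liver than in any 5-week WT liver, and Mpeg1 rose in the same livers as Slfn1. Their part in the Schlafen differences was not tested.

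**Figure D4:**
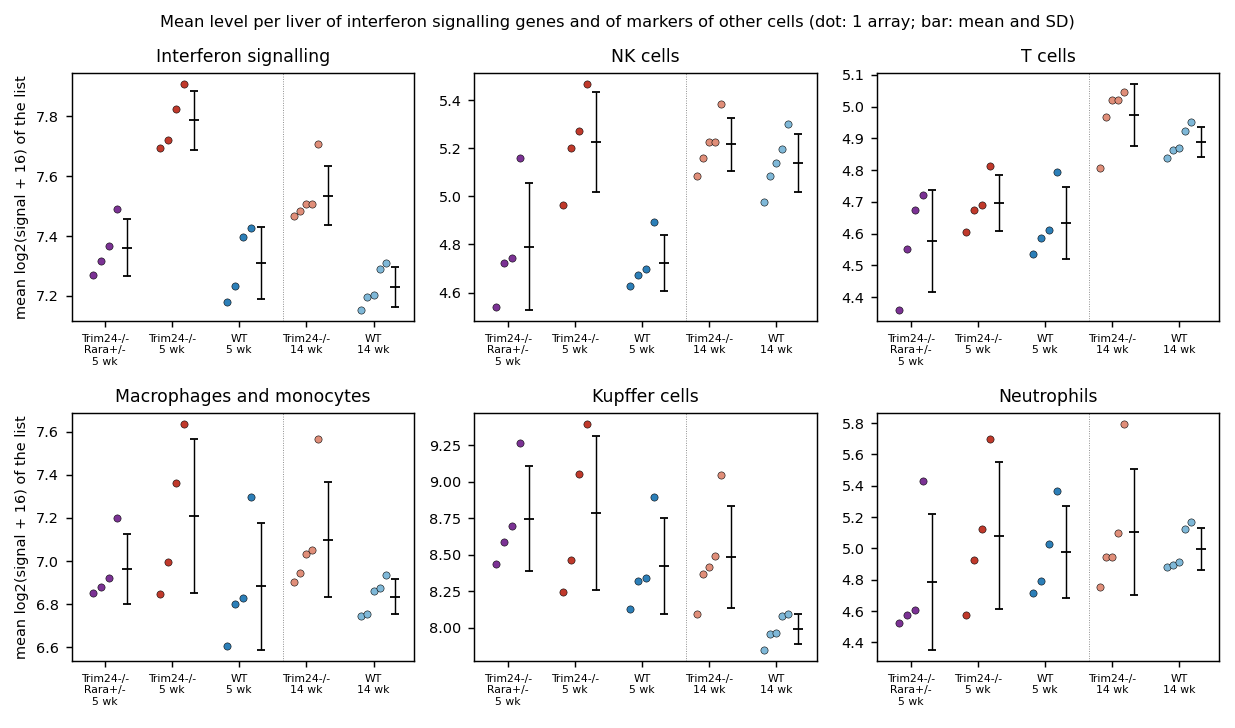
Mean log2(signal + 16) per liver of interferon signalling genes and of 5 marker lists (y axis), by group (x axis); dots are livers and bars the mean and SD. The 5-week Trim24-/- livers lie above both other 5-week groups for interferon signalling alone, and overlap the Trim24-/- Rara+/- livers for NK cells.

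The position on the chromosome was also examined. Genes on either side of the Schlafen cluster were Rffl, Rad51d, Fndc8, Nle1 and Unc45b before it and Ap2b1, Rasl10b, Gas2l2 and 1700020L24Rik after it, 9 measured genes in all. None was called in any comparison in limma, against at most 0.182% of all probe sets in either direction. In the 3 comparisons at 5 weeks 0 had an unadjusted p under 0.05, against 2.56 to 5.29% of all in each direction. At 14 weeks 2 did, Unc45b higher and Nle1 lower, against 3.9% and 3.31% of all. Median differences of the 9 genes were 0.03, -0.07 and -0.14 at 5 weeks (Trim24-/- against WT, Trim24-/- Rara+/- against WT and Trim24-/- Rara+/- against Trim24-/-) and -0.03 at 14 weeks. Of relatives outside the 7 members, the pseudogene Slfn10-ps was below 16 on all 22 arrays. Slfnl1, a Schlafen-like gene, read 9.67 ± 5.70 in Trim24-/- Rara+/-, 6.76 ± 3.002 in Trim24-/- and 18.4 ± 7.72 in WT livers at 5 weeks, with a difference between Trim24-/- and WT of -0.58 ± 0.19 (limma, adjusted p = 0.352).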

How the data were processed

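Liver RNA of 22 mice was hybridised to Affymetrix arrays, 1 array per animal, after successive rounds of amplification and biotin labelling, per the labels' protocols. The deposited values are linear intensity per probe set, and the values themselves show a trimmed mean (2% off each end) of 100.001 on every array; the software was not given in the sources used here. From 45101 probe sets, 64 controls were left out and 45037 kept, of which 34945 are annotated to 1 symbol, 932 to several and 9160 are not listed. log2(signal + 16) was fitted with limma 3.58.1 in R 4.3.3 (lmFit, eBayes), with 1 fit of the 12 arrays at 5 weeks, 1 of the 10 at 14 weeks and 1 of all 22 for the interaction. Benjamini-Hochberg adjustment ran over all probe sets, and a probe set was called at adjusted p under 0.05. The fit was also run on simulated normal noise with known changes, as a check of the code and not of the Schlafen results. Groups came from the sample titles. Animals are separate livers, and only 4 or 5 per group limit the precision.

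Every probe set of a member was named. Trim24, Rara, Slfn10-ps and Slfnl1 were given by their probe set of highest mean alone. From the lists (interferon signalling, genomic neighbours and markers of hepatocytes and of NK, T, B, dendritic, endothelial, Kupffer and neutrophil cells and macrophages), called members were named, and Irf7 and Usp18 were chosen after their values were seen. For lists the probe set of highest mean per gene was used. Genes of like pattern were to be the 3 with the highest Pearson r over the 5-week arrays, for members with a mean log2 of at least 6. Members and lists were chosen with earlier results of these data known. Outlying livers were sought with Dixon's test on log2(signal + 16). Alternatives were other pseudocounts, a filter on low values, other normalizations, variance models, arrays in the fit and probe set summaries, averaged or left-out animals, and each array left out in turn. Start-site windows came from RefSeq (GRCm38.p6), and all 7 members matched.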

Additional observations from a re-analysis of the deposited data

Results flagged for a closer look

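Dixon's test was run on log2(signal + 16) at its 95% critical value (0.829 for 4 livers and 0.710 for 5). It marked 1 liver as apart from the rest of its group in 6 of 55 pairs of probe set and group. Chance marks about 1 in 20. The values printed here are signals, on which the same test could mark other livers. Slfn2 read 59.3 in Trim24-/- Rara+/- animal 73, against 24.7 to 28.5 in the other 3 livers of that group. The Slfn5 probe set 1456288_at read 33.1 in 1 Trim24-/- liver at 14 weeks (the fourth in the fixed order), against 40.4 to 41.1 in the other 4. Slfn5 probe set 1442640_at read 1.45 in 1 WT liver at 14 weeks (the first), against 22.8 to 33.4 in the others, and Slfn8 read 5.59 in another WT liver at 14 weeks (the second), against 19.2 to 23.4. Slfn3 read 9.03 in Trim24-/- Rara+/- animal 82, against 0.530 to 1.33, and 8.24 in 5-week Trim24-/- animal 1, against 0.178 to 0.543, and all of these Slfn3 signals were below 16.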

How the results depend on the processing

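Counts of called Schlafen features depended on the processing. For Trim24-/- against WT at 5 weeks the count of 1 was 0 with a pseudocount of 1 or 64, with only the compared groups in the fit, with Trim24-/- Rara+/- animals 54, 66 and 82 averaged, with Trim24-/- animals 1 and 8 averaged, and with WT animal 90 and Trim24-/- animal 6 left out. It was 2 (Slfn1 and Slfn2) with each array centred on its median, with a variance trend and with all 22 arrays in the fit, and 2 (Slfn2 and Slfn4) with the brightest probe set per gene, which for Slfn1 is 1447614_at (-0.39, adjusted p = 0.321). With the mean of the probe sets per gene it stayed 1, but the gene called was Slfn2 (adjusted p = 0.0322) and Slfn1 was lost (0.29, adjusted p = 0.482). With single livers left out it ranged from 0 to 2. For Trim24-/- Rara+/- against Trim24-/- the count of 0 was 1 (Slfn1) with array weights and 2 (Slfn1 and Slfn2) with all 22 arrays in the fit, and 0 to 1 with single livers left out. The other 3 comparisons had 0 calls under every alternative run; a mean log2 level of at least 6 left no Schlafen probe set, so that filter gave no value.

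Leaving aside these 2 summaries per gene, Slfn1 probe set 1418612_at was called in Trim24-/- against WT at 5 weeks under 7 of 23 alternatives (differences of 0.33 to 2.95, adjusted p from 0.00359 to 0.133), Slfn2 under 4 of 23 (0.72 to 1.64, 0.00675 to 0.165) and Slfn4 under 1 of 23 (0.59 to 3.39, 0.0433 to 0.237), all positive. Signs turned for Slfn2 in Trim24-/- Rara+/- against WT without animal 73 (range with single livers left out, -0.0087 to 0.30), for Slfn2 at 14 weeks without the Trim24-/- liver given second or last or the WT liver given second (-0.031 to 0.17), and for Slfn4 at 14 weeks without the Trim24-/- liver given last (-0.15 to 0.28). Of 936 values of the other 8 probe sets, 52 had the other sign and 0 were called. The cause of these changes was not tested. No paired analysis was run, because the sample titles give each liver its own number and name no pairs. Signals near or below 16 limit what can be seen of most members.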
